A study of Mus musculus with 2 samples.

Results

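Schwann cells were picked out of single-cell RNA-seq of whole spinal cords of FVB mice at postnatal day 4. A cell was counted as a Schwann cell where it carried a UMI (unique molecular identifier, 1 captured RNA molecule) of 3 or more of the 13 genes Prx, Drp2, Ncmap, Egr2, Gldn, Cdh19, Foxd3, Scn7a, Dhh, Pmp2, Art3, Gfra3 and Sbspon, and of at most 1 of Pdgfra, Mog, Cx3cr1, Cldn5, Aqp4 and Col1a2, which mark other cell types. This gave 204 cells out of 17043 that passed the limits on cells (200 to 4000 genes and under 10% mitochondrial UMIs). There was 1 library labelled SMA, from mice without intact mouse Smn (mSmn-/-, hSMN22tg/0), and 1 labelled Con, from mice with 1 intact allele (mSmn+/-, hSMN22tg/0), and both groups carried the human SMN2 transgene. Littermates had been pooled into each library and their sexes were not given. "SMA" and "Con" below stand for the libraries labelled so. With 1 library per group there was no spread between replicates to set a difference against, so no test was run, and every interval is a 95% interval that covers counting error only.

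Schwann cells are the glia of peripheral nerve, derived from the neural crest, and spinal cord preparations reach them through the nerve roots. A myelinating Schwann cell wraps a single large axon and fills its membrane with peripheral myelin proteins such as Pmp22, whereas oligodendrocytes, the myelin-forming glia of the cord itself, build a myelin of different composition around many axons. Immature Schwann cells divide around birth, receive neuregulin from axons through the receptors Erbb2 and Erbb3, and switch on the myelin programme under Sox10, Pou3f1 and Egr2. In spinal muscular atrophy (SMA) the SMN protein is short, motor neurons are lost, and the motor roots are where their axons meet these cells.

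The library labelled SMA held 72 of these cells among 6787 kept (1.06%, 0.831 to 1.33), and the library labelled Con 132 among 10256 (1.29%, 1.08 to 1.52). The log2 ratio of the shares, SMA over Con, was -0.28 (-0.69 to 0.13), so a difference was not detectable at this depth. The kept Con cells still held barcodes of high ribosomal share found in that library alone, which enlarge its denominator. Depth per cell had a median of 9041 UMIs in SMA (3444 to 14697) and 8803 in Con (1791 to 19242), and the cells summed to 684643 and 1225270 UMIs. The libraries were not free of each other. They shared 8163 barcodes, and 122 of the 132 Con cells had a barcode that was also listed in the SMA library. Shared barcodes had been left out of the SMA library only, and 79 SMA barcodes that met the marker rule were left out for this reason. These had a median of 2428 UMIs, against 9186 for the Con cells that carried the shared barcodes. When shared barcodes were left out of Con too, only 10 Con cells remained (0.271% of those kept) and the log2 ratio of shares was 1.97. When the shared barcodes were kept in both libraries it was -0.18.

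The label was checked against genes the rule did not use. Pmp22 reached 11115 CPM (UMIs scaled to a sum of 1000000 over the cells) in the SMA cells and 9318 in the Con cells, against 140 and 222 CPM in all other kept cells. Cldn19, the claudin of Schwann cell tight junctions, stood at 437 and 378 CPM, and the small heat-shock protein gene Cryab at 3102 and 3070 CPM against 50.5 and 92.8. Pmp22 was found in 94.4% of the SMA and 97.7% of the Con Schwann cells, against 27.5% and 26.5% of microglia (median depths 6810.5 and 6929 UMIs), and thinned to 2000 UMIs in 90.1% and 89.5% against 11% and 10.9%. That they lay in the nerve roots was not measured. Of the 8 defining markers, Dhh and Prx were the most often seen (57 and 51 of the 72 SMA cells, 110 and 81 of the 132 Con cells), followed by Ncmap (36 and 62) and Egr2 (35 and 62). Egr2 does not set these cells apart from microglia, where 58.2% of SMA and 54.8% of Con cells had a UMI of it, against 48.6% and 47.0% of Schwann cells. Ngfr, the neurotrophin receptor of immature Schwann cells, was seen in only 5 and 13 cells. At the edge of the rule, the 7 SMA and 29 Con cells with exactly 3 of the genes had 753 and 1444 CPM of Pmp22, and the 43 and 66 kept cells with 2 of the genes, just outside, had 131 and 376 CPM. The median Schwann cell carried 6 of the 13 genes in SMA and 5 in Con.

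Markers of other cells were read next. One excluded gene was present in 67 of 72 SMA and 120 of 132 Con cells, and it was nearly always Col1a2, a fibrillar collagen gene (62 and 115 cells). Summed Col1a2 stood at 336 and 938 UMIs, a level that relative to fibroblasts, themselves chosen partly by this gene, came to log2 ratios of -1.92 and -3.18. Only 5 SMA and 12 Con cells carried no excluded gene at all. Mog and Cldn5, which define oligodendrocytes and endothelium, were at 0 or 1 UMI, a level the rule largely set, since both are excluded genes. The 9 microglial markers were above 0 in 31 of 72 and 62 of 132 cells, at a median of 0% of a cell's UMIs in both libraries and a highest cell of 2.51% in SMA and 2.20% in Con. Summed, however, they stood higher in SMA, at 504 against 303 CPM (log2 ratio 0.73, 0.52 to 0.95), none of the 9 was at 0 in either library, and the complement gene C1qa, with 107 and 88 UMIs, was past 2-fold (1.12, 0.70 to 1.55). The 10 markers of oligodendrocyte precursors were above 0 in 20 and 56 cells, and summed to 64 and 278 UMIs (-1.28, -1.69 to -0.88), with 3 of them at 0 in SMA. Mural (54 and 21 UMIs, 2.20, 1.45 to 3.00) and boundary cap markers (60 and 57, 0.91, 0.37 to 1.46) summed higher in SMA, and those of neurons (76 and 202, -0.57, -0.97 to -0.18), oligodendrocytes (153 and 384, -0.49, -0.77 to -0.21) and melanocytes (21 and 75, -0.997, -1.77 to -0.28) lower. The 6 satellite glia markers, which include Ednrb, summed to 623 and 1511 UMIs (-0.44, -0.58 to -0.30). The part of these cells' transcripts in the gene ratios was not tested. Globins made up 400 CPM in SMA and 30936 CPM in Con, and 30648 of the 37905 Con globin UMIs lay in 3 cells. Without the 12 Con cells that held 1% or more globin, Con stood at 437 CPM. Xist, the transcript of the inactive X chromosome, had 0 UMIs in the SMA cells and 104 in 13 Con cells, so the sexes in the pools and the genotype cannot be told apart.

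Clustered on their own, the cells fell into 6 groups, whose sizes are given for each library but are not a comparison of shares. Sub-cluster 2 (23 SMA and 30 Con cells) was myelinating Schwann-like, with all 12 myelinating markers detected and Pmp2, the cytosolic lipid-binding protein of peripheral myelin, among its leading genes. Ddn, Cntf, Ecscr, Frmd3, Ogn, Acss2 and Chp2 led beside it. Sub-cluster 1 (17 and 38 cells) was immature or non-myelinating Schwann-like, with 5 of 10 markers detected (Ngfr, Ncam1, L1cam, Scn7a and Emp1), and was led by Rflna, Wnt6, Entpd2, Abca8a, Rarres2, Col6a3, Fxyd1 and S1pr3. Of 8 fibroblast markers 3 were detected in it too (Col1a1, Col1a2 and Col3a1), as were 6 of 28 cell-cycle genes. So were 2 of 6 satellite glia markers (Ednrb and Slc1a3) and 2 of 5 boundary cap markers (Hey2 and Npr3). Sub-cluster 1 is called the immature group below for short, though its markers do not tell immature from non-myelinating cells. Sub-cluster 5 (14 and 8 cells) was led by cell-cycle genes, with all 28 cell-cycle genes detected and Kif11, Hist1h1b, Bub1b and Ube2c in front. It is called the cycling group here, though cycling cells were found outside it as well, and it carried 7 of the 10 immature markers.

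The remaining groups were left unnamed. Sub-cluster 3 (14 and 23 cells) was led by Cmtm2b, Mir670hg and Abca1, with Ddit3 among its 8 leading genes. Beside a high myelin content, 7 of 9 microglial markers and 4 of 5 erythroid markers, all globins, were detected in it. Sub-cluster 4 (2 and 24 cells) was led by Cdkn1c, which encodes a cyclin-dependent kinase inhibitor, followed at lower folds by Sod3, Sema3g and Tmem100. With 24 of its 26 cells from Con, the library and a state of the cells cannot be told apart in it. Sub-cluster 6 (2 and 9 cells) was led by Fam183b, Chgb and Pdgfra and showed all 10 markers of oligodendrocyte precursors.

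Myelin content set these groups far apart. Over all cells, the 20 peripheral myelin genes together took a median of 2.65% of a cell's UMIs in SMA (0.145% to 25.3%) and 2.27% in Con (0.131% to 22.4%). In the myelinating group the median was 16.3% in SMA (11.5% to 25.3%) and 18% in Con (7.98% to 22.4%). Sub-cluster 3 followed with 8.09% and 8.60%. In the immature group it was 0.98% and 1.32%, and in the cycling group 0.96% and 0.98%. Within each of these groups the cells of SMA and Con overlapped, and each myelinating cell of either library lay above every cell of the immature and cycling groups.

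**Figure D1:**
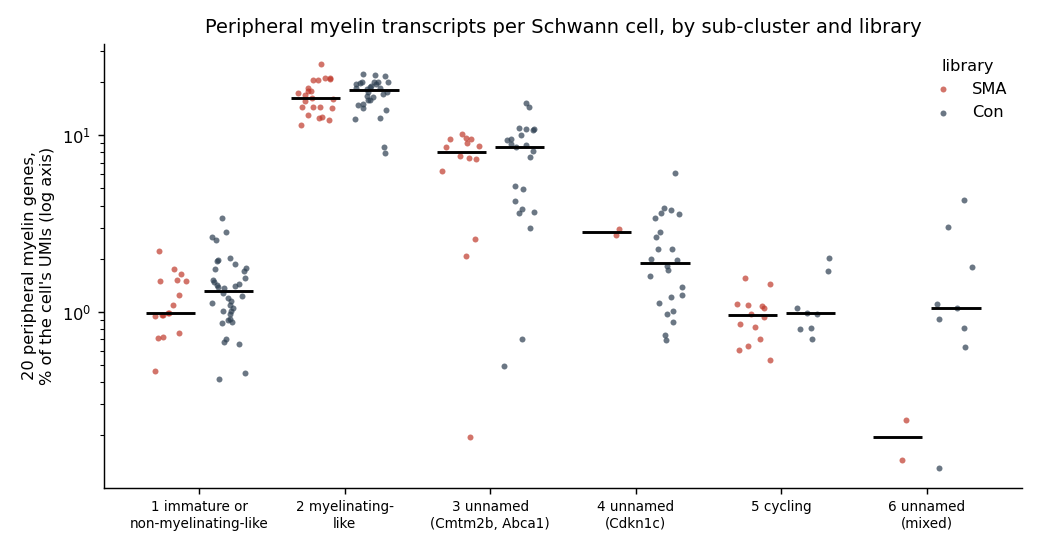
Share of each Schwann cell's UMIs that came from the 20 peripheral myelin genes (%, log axis), by sub-cluster, with 1 point per cell, red for SMA and dark blue for Con, and a bar at each median. Myelinating-like cells sit at medians of 16.3% and 18%, the immature-like and cycling cells near 1%, and the libraries overlap in every group of 8 or more cells per library.

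Cholesterol synthesis, on which myelin membrane depends, was likewise highest in the myelinating group. Its 24 genes took a median of 0.94% of UMIs in the myelinating SMA cells (0.27% to 1.69%) and 1.07% in the myelinating Con cells (0.48% to 2.0%), against 0.21% and 0.16% in the immature group and 0.10% and 0.10% in sub-cluster 3. Sub-cluster 3 thus had a high myelin share beside a low share of cholesterol transcripts in both libraries.

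The genes that most set Schwann cells apart from all other kept cells were common to both libraries. Of 2559 genes compared, 117 were 4-fold or more above the other cells in both, 35 were 16-fold or more and 4 were 64-fold or more. By the lower of the 2 libraries, and leaving out the rule's own genes, the leading ones were Fxyd3, a regulator of the sodium pump (log2 ratio over other cells 7.21 in SMA and 6.45 in Con), Cldn19 (7.37 and 6.05), Mlip (7.41 and 6.0) and the amino acid transporter Slc36a2 (6.47 and 5.95). Next came Mme, a membrane peptidase, Sema3b, a secreted semaphorin, Fam178b, Sostdc1, a secreted antagonist of BMP and Wnt signals, and Sncg, between 5.54 and 7.62. Pmp22 (6.31 and 5.39), Egfl8, Mal, Prss12, Cryab, the potassium channel Kcna1, Plekha4, Efhd1, Shtn1 and Gas2l3 were also among the first 20. For all of these but Kcna1 the ratio was larger in SMA. In the other kept cells most of them had a lower CPM in SMA than in Con, as with Pmp22 at 140 and 222 CPM, so the 2 ratios do not share a common base.

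Set against oligodendrocytes (168 SMA and 225 Con cells with 3 or more oligodendrocyte markers), the division between peripheral and central myelin was plain. Pmp22 was higher in Schwann cells by 8.60 log2 units in SMA and 7.31 in Con, and Cldn19 by 6.87 and 8.44. The laminin chain gene Lama2, which contributes to the basal lamina around each Schwann cell, was higher by 6.27 and 7.59. The oligodendrocyte genes Mobp (log2 ratios of -5.76 and -5.62) and Cldn11, a claudin of central myelin (-7.48 and -7.05), were lower in Schwann cells, and both had been used to choose oligodendrocytes. Mag, an adhesion protein of both myelins, stood at -3.40 and -2.85. Mbp, which compacts the cytoplasmic face in both, differed least among these, at -1.27 and -1.19. Oligodendrocytes had been allowed at most 1 of the 8 Schwann markers, so the near absence of Prx and Ncmap in them (0 and at most 1 UMI per library) was in part set by the choice of cells, while Pmp22, Cldn19 and Lama2 were used in neither choice.

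**Figure D2:**
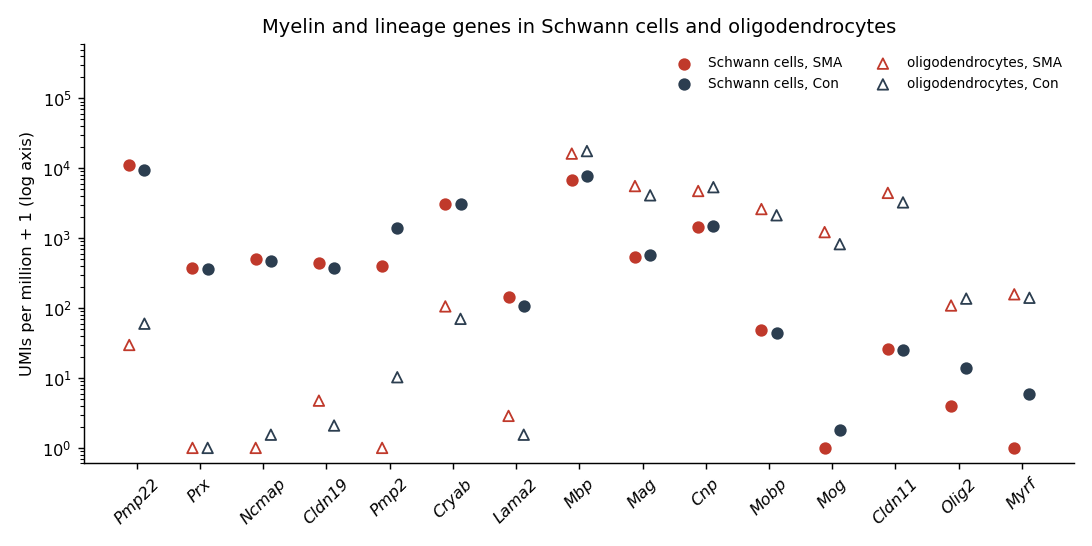
CPM plus 1 (log axis) of 15 myelin and lineage genes, summed over the Schwann cells (filled circles) and the oligodendrocytes (open triangles) of SMA (red) and Con (dark blue). Pmp22 stands at 11115 CPM in SMA and 9318 in Con Schwann cells, while Mbp and the genes to the right of it are higher in oligodendrocytes of both libraries.

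SMA and Con Schwann cells were then compared gene by gene, on UMIs summed over cells and expressed as CPM. Among 2568 genes with 100 or more UMIs, 41 were 2-fold or more higher in SMA (1.6%) and 26 were 2-fold or more lower (1.01%), that is 2.61% either way. In all, 1443 genes were higher in SMA and 1125 lower, the median log2 ratio was 0.05, and 90% of genes lay between -0.57 and 0.68. In 792 genes the counting interval lay off 0. The log2 ratio is always SMA over Con, and 2-fold is a convention of size here, not a test.

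Of the 20 peripheral myelin genes 19 were compared, none was 2-fold higher and 1 was 2-fold lower, with a median log2 ratio of -0.05. Mbp gave -0.20 (-0.25 to -0.15) in the sums, but 0.02 when each cell was given equal weight. Pmp22, whose dosage is tightly held in peripheral nerve, was higher in SMA at 0.25 (0.21 to 0.30). It lies on chromosome 11, 63128982 to 63159547, on the plus strand of GRCm38. A cell held a median of 39.8 Pmp22 UMIs per 10000 in SMA (0 to 373) and 29.2 in Con (0 to 301), so the libraries overlapped throughout. The myelin membrane gene Mal (0.48, 0.39 to 0.57) and the tetraspanin gene Cd9 (0.61, 0.56 to 0.67) were higher too, and both were higher with intervals off 0 in each of the 4 sub-clusters with 8 or more cells per library. Cadm4, the adhesion protein that holds the glial side of the internode, stood at 0.52 (0.28 to 0.76). S100b, a calcium-binding protein used to stain Schwann cells, was the 1 gene past 2-fold, with 84 UMIs in SMA and 308 in Con (-1.03, -1.40 to -0.68), and at -0.79 with equal weight per cell it was no longer past it. The gap junction gene Gjb1 gave -0.52 (-0.94 to -0.12) but 0.00 with equal weight, and Cmtm5 -0.33 (-0.62 to -0.05). The intervals of Mag, Cldn19, Gjc3, Cnp, Fa2h, Ugt8a, Gal3st1, Dusp15 and Cryab spanned 0. Nfasc, an adhesion protein of the paranode, had 25 and 38 UMIs and was not compared.

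The values of the 13 genes that chose the cells are a description only, since the rule used them. In 8 of them 100 or more UMIs were found, and Pmp2 alone was past 2-fold. Prx, Ncmap, Egr2, Gldn, Drp2 and Cdh19 had intervals that spanned 0, with log2 ratios of -0.01 to 0.51. Dhh, the hedgehog signal from Schwann cells to the nerve sheath, gave -0.47 (-0.76 to -0.19), and Art3 -0.31 (-0.49 to -0.13). Sbspon, Foxd3 and Scn7a, the last a sodium channel of non-myelinating cells, gave 0.88 (0.53 to 1.24), 0.67 (0.02 to 1.32) and 1.64 (0.86 to 2.45), the last from 40 and 23 UMIs. Gfra3 had 5 and 4 UMIs.

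Pmp2, on chromosome 3 from 10179851 to 10183929 on the minus strand of GRCm38, had 275 UMIs in SMA and 1696 in Con, that is 402 and 1384 CPM, a log2 ratio of -1.78 (-1.97 to -1.60). It was seen in 30 of 72 and 61 of 132 cells, and most of its UMIs lay in the myelinating group. In the myelinating group it was detected in 20 of 23 SMA and 29 of 30 Con cells, yet a cell held a median of 3.64 UMIs per 10000 in SMA (0 to 45.1) and 27.5 in Con (0 to 143). The sums there were 220 and 1558 UMIs (-2.08, -2.29 to -1.88). The ranges overlapped. In sub-cluster 3, with 46 and 103 UMIs, the log2 ratio was -0.29 (-0.83 to 0.22). The SMA cells of the myelinating group had fewer UMIs in all, at a median of 9646 against 13997 in Con, and the part of depth in the difference was not tested beyond scaling to each cell's total. With the shared barcodes kept in SMA the ratio over all Schwann cells was -0.47, and among the 5 and 12 cells with no excluded gene -0.83. Pmp2 helped to choose the cells, and with Pmp2 left out of the rule the ratio was -1.79.

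**Figure D3:**
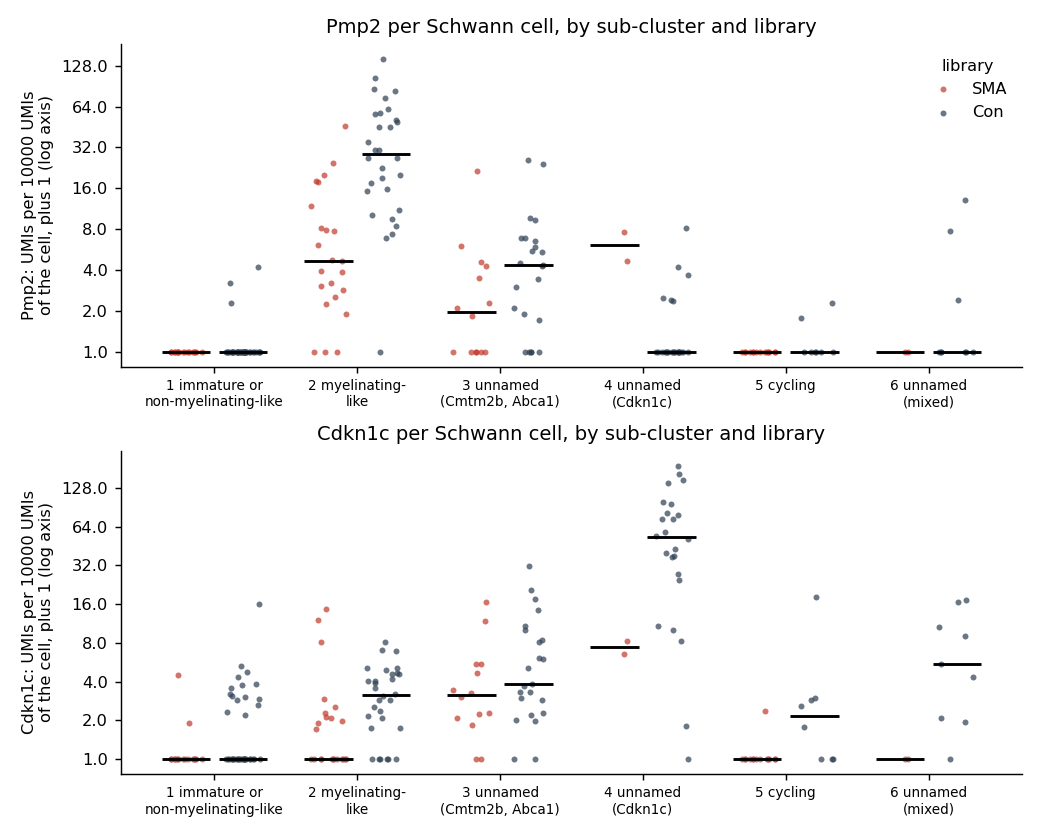
Pmp2 and Cdkn1c in each Schwann cell, as UMIs per 10000 of the cell's UMIs plus 1 (log axis), by sub-cluster, red for SMA and dark blue for Con, with a bar at each median. In sub-cluster 2 the Pmp2 medians are 3.64 in SMA and 27.5 in Con before adding 1, and the highest Cdkn1c values are those of Con cells in sub-cluster 4.

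Lipid synthesis showed no shared shift past 2-fold. Of 24 cholesterol synthesis genes 20 were compared, 7 were higher and 13 lower in SMA, none past 2-fold, and their median was -0.13. Fdps gave -0.28 (-0.43 to -0.13) and Cyp51 -0.31 (-0.61 to -0.03), and Hmgcs1, Idi1 and Msmo1 had intervals that spanned 0. In the myelinating group alone the median over 17 genes was -0.33, beside 0.05 over the 875 genes compared there. With equal weight per cell, however, the median over all Schwann cells was 0.06, so its direction rests on how cells are weighted. Of 22 fatty acid and sphingolipid genes 14 were compared, with a median of -0.19 and none past 2-fold. Among them the desaturase gene Scd2 (-0.34, -0.54 to -0.15), the elongase gene Elovl1 (-0.39, -0.58 to -0.19) and the ceramide synthase gene Cers2 (-0.64, -0.98 to -0.31) were lower, and the fatty acid carrier Fabp5 was higher (0.21, 0.08 to 0.34).

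The regulators of the lineage mostly stayed within 2-fold. Of 21 transcription factors 10 were compared, 1 was 2-fold higher, none was 2-fold lower, and the median was 0.10. The intervals of 2 lay above 0 and those of 4 below, beside 792 of all 2568 genes with an interval off 0. Sox10, which holds the whole lineage, had 56 UMIs in SMA and 138 in Con (-0.46, -0.94 to -0.00). Pou3f1, which drives entry into myelination, gave -0.35 (-0.64 to -0.05), Zeb2 -0.36 (-0.66 to -0.06) and Sox4 -0.44 (-0.78 to -0.11). Between sub-clusters Pou3f1 went both ways. It was higher in SMA in the myelinating group (55 and 62 UMIs, 0.57, 0.02 to 1.11) and lower in the immature group (11 and 43 UMIs, -1.13, -2.23 to -0.15). Id2, an inhibitor of differentiation, gave 0.33 (0.06 to 0.58). The nuclear receptor gene Nr2f1 was the 1 past 2-fold, with 66 and 56 UMIs (1.08, 0.54 to 1.62). Jun, the regulator of the injury state of Schwann cells, stood at 0.11 (-0.03 to 0.26) over all cells, but the sub-clusters went in opposite directions. It was higher in SMA in the myelinating group, with 84 UMIs in 11 of 23 cells against 44 in 18 of 30 (1.67, 1.13 to 2.23), and in sub-cluster 3 (0.40, 0.05 to 0.75), and lower in the immature group, with 171 and 403 UMIs (-0.40, -0.66 to -0.13). Of 16 genes of immature and non-myelinating cells 6 were compared, none past 2-fold, with a median of -0.46 and 3 intervals below 0. Serpine2, a secreted protease inhibitor, was the most counted of them and lower in SMA (372 and 1180 UMIs, -0.83), yet 522 of its Con UMIs lay in sub-cluster 4, in sub-clusters 1, 2 and 3 its intervals spanned 0, and in the cycling group it was lower (-0.93, -1.52 to -0.33). Sox2, which keeps cells immature, was higher at 0.70 (0.20 to 1.19).

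Signals from the axon were mostly too sparse to compare. Of 25 genes of the neuregulin and axon signal list only 3 reached 100 UMIs. Erbb3, the neuregulin receptor, gave -0.05 (-0.50 to 0.39), and Lpar1, a lysophosphatidic acid receptor, 0.02 (-0.37 to 0.40). Ednrb, the endothelin receptor that slows Schwann cell maturation, had 89 UMIs in 35 SMA cells and 430 in 83 Con cells (-1.43, -1.78 to -1.10). Its ratio was -2.65 (-3.39 to -1.99) in the immature group and -1.93 (-2.54 to -1.34) in the cycling group, and the intervals spanned 0 in the myelinating group and sub-cluster 3. Satellite glia also express Ednrb, and of their markers Fabp7 stood at -0.10 and Ptprz1 at -0.96. In all other kept cells Ednrb was slightly higher in SMA, at 0.26.

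Trophic factors, through which Schwann cells act on axons, were few as well, and 4 of 26 were compared. Ptn, the growth factor pleiotrophin, was higher in SMA with 704 UMIs against 726 (0.80, 0.64 to 0.95). It was higher in all 4 sub-clusters with 8 or more cells per library, with intervals off 0 in 3 of them, but gave -0.38 once shared barcodes were left out of Con too. Pdgfa stood at 0.37 (0.03 to 0.72), Mdk at -0.20 (-0.66 to 0.24) and Sema3b at -0.07 (-0.30 to 0.17). Cntf, the ciliary neurotrophic factor that supports motor neurons, had 9 UMIs in 8 SMA cells and 45 in 19 Con cells (-1.48, -2.70 to -0.43), below the limit of 100 UMIs. Gdnf, Ntf3, Lif and Fgf1 had no UMI in either library, which allows a share of up to 4.17% of SMA cells and 2.27% of Con cells with a UMI.

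Contacts with matrix and axon were close to the median of all genes. Of 26 genes of the basal lamina and its receptors 17 were compared, with 9 higher, 8 lower, none past 2-fold and a median of 0.03. The integrin chain gene Itga6 (0.54, 0.29 to 0.78) was higher, and Sparc (-0.28, -0.34 to -0.22) and Dag1, the laminin receptor dystroglycan (-0.28, -0.54 to -0.02), were lower. Of 18 genes of the node and of axon contact 10 were compared, and Sdc4, a syndecan, was 2-fold higher (182 and 160 UMIs, 1.03, 0.71 to 1.34). Ezr, a linker of the microvilli that face the node, gave -0.65 (-0.96 to -0.35), and Mpp6, Sirt2, Rdx and Epb41l2 had intervals that spanned 0.

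**Figure D4:**
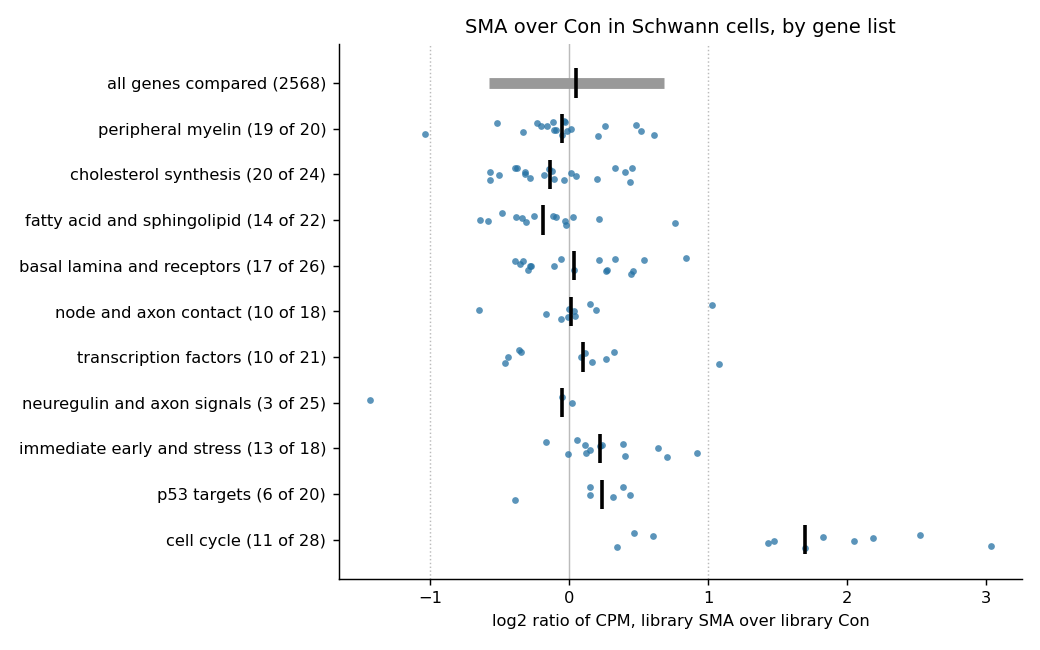
Log2 ratio of CPM, SMA over Con, for the compared genes of 10 lists, with 1 point per gene, a black bar at each median, the number compared out of the list's size in brackets, and, at the top, the range that holds 90% of all 2568 genes. The medians lie between -0.19 and 0.23 apart from cell cycle genes, whose median is 1.69, with dotted lines at 2-fold.

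Cell-cycle transcripts were higher in SMA in sum. Summed over all 28 genes, with no limit on UMIs, they had 1800 UMIs in SMA and 1215 in Con (1.41, 1.30 to 1.51). Of the 28 genes 11 reached the limit of 100 UMIs, with a median of 1.69. Of these 11, 8 were 2-fold or more higher, beside 41 of all 2568 genes (1.6%). Some of the 11 passed the limit mostly through SMA, so the limit in part set this count. The mitotic ubiquitin enzyme gene Ube2c had 284 UMIs in 13 SMA cells and 62 in 12 Con cells (3.04, 2.63 to 3.46). Cenpf (2.52), Birc5 (2.18), Cdca8 (2.05), Cdk1 (1.83), Pclaf (1.69), Top2a (1.47) and Rrm2 (1.43) were the others past 2-fold, and Pcna, Dut and Tyms were between 0.34 and 0.61. Nearly all of this lay in few cells. Of the Ube2c UMIs in SMA 280 of 284 belonged to the cycling sub-cluster, and without that sub-cluster the ratio was -0.03. Within it, 9 genes of the list could be compared, with 5 higher, 1 of them past 2-fold, and a median of 0.16, where 283 of all 406 genes compared were higher and the median was 0.21.

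Cells were therefore counted as well. A cell was called cycling where, thinned to 2000 UMIs, 3 or more of the 28 genes kept a UMI. This held for 19 of 72 SMA cells (26.4%, 16.7 to 38.1) and for 20 of 131 Con cells (15.3%, 9.58 to 22.6), and 1 Con cell was too shallow. The log2 ratio of the shares was 0.79 (-0.02 to 1.59), so the interval spanned 0. Without thinning the shares were 47.2% and 27.3%. All 14 and 8 cells of sub-cluster 5 were called, 4 of 17 and 9 of 38 of the immature group, and none of the 23 and 29 of the myelinating group. In Con 12 of the 20 called cells thus lay outside sub-cluster 5. In erythroid cells 1.63% and 2.13% were called, at median depths of 9894 and 9881 UMIs against 9041 and 8803 in Schwann cells. Globins fill much of an erythroid cell's UMIs, so thinning leaves fewer others, and without thinning 12.7% and 15.4% were called. Erythroid cells also carried Ube2c, which is on the list, at 220 and 244 CPM, so their share is no rate of false calls. Microglia gave 18.4% and 12.4%, committed oligodendrocyte precursors 16.2% and 13.3%, and oligodendrocytes 13.9% and 10.0%. Cells with 2 or 3 of the genes, next to the limit, numbered 8 and 10. With the shared barcodes kept in SMA the shares were 15.5% and 15.3%.

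Beyond the lists, the 12 highest and 12 lowest ratios were taken among genes with 200 or more UMIs whose interval lay off 0 and whose direction held with equal weight per cell and without globins. The highest were Ube2c (3.04), Hmgb2 (1.76), Cebpd (1.76), Pclaf (1.69), H2afx (1.59), Sostdc1 (1.49), Hmgn2 (1.40), Selenoh (1.39), Lsm5 (1.37), mt-Nd4l (1.34), Rps27l (1.32) and Fst (1.30). Without the cycling sub-cluster Hmgb2 stood at 0.46, Pclaf at 0.00, H2afx at 0.14, Hmgn2 at 0.83, Selenoh at 0.78, Lsm5 at 0.86 and Fst at 0.91, none of them past 2-fold. Cebpd encodes a transcription factor of inflammatory and stress responses. It had 442 UMIs in 50 of 72 SMA cells and 234 in 60 of 132 Con cells, with a median of 2.12 UMIs per 10000 in SMA (0 to 38.9) and 0 in Con (0 to 31.3). Sostdc1 had 895 and 569 UMIs, and a median of 5.62 (0 to 77.5) and 2.82 (0 to 58.7) per 10000. Rps27l, a ribosomal protein homologue that p53 induces, had 748 UMIs in 71 cells and 538 in 124 cells. These 3 genes were higher in SMA with intervals off 0 in each of the 4 larger sub-clusters, from 0.75 to 5.03 for Cebpd, 0.78 to 1.84 for Sostdc1 and 0.48 to 1.79 for Rps27l. In the cycling group Cebpd had 194 UMIs in SMA and 3 in Con, where the microglial gene C1qa had 0 in both. In sub-cluster 3 both were higher in SMA, with 75 and 19 UMIs of Cebpd (2.85) and 84 and 63 of C1qa (1.28, 0.79 to 1.78). Among the 5 and 12 cells with no excluded gene Sostdc1 gave -0.76. In all other kept cells Cebpd stood at -0.06 and Sostdc1 at 0.04, but Rps27l at 0.58 and mt-Nd4l, a mitochondrially encoded subunit of complex I, at 1.48, above its Schwann value. Fst, the activin antagonist follistatin, was lower in SMA in the other cells (-1.18) and was higher in Schwann cells in 3 of 4 sub-clusters.

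The lowest ratios were those of the 4 globins, -7.03 to -5.36, whose Con UMIs lay in few cells as given above. After them came Cdkn1c (chromosome 7, 143458339 to 143461050, minus strand), at -3.11 (-3.40 to -2.83), with 110 UMIs in 28 of 72 SMA cells and 1699 in 96 of 132 Con cells. Of the Con UMIs 1361 lay in sub-cluster 4, and outside it the UMIs were 99 and 338. The ratio was below 0 in each larger sub-cluster, at -1.74 in the immature group, -0.49 in the myelinating group, -0.50 in sub-cluster 3 and -4.74 in the cycling group, and the myelinating group's interval spanned 0. The 10 Con cells without a shared barcode gave 0.71 in the other direction. In oligodendrocytes Cdkn1c stood at -0.72, in committed oligodendrocyte precursors at -0.19 and in erythroid cells at -1.64, whereas in fibroblasts it was higher in SMA (0.71, 0.56 to 0.86) and in microglia its interval spanned 0 (0.17). The rest were Ednrb and S100b, both described above, Mxd4 (-1.08), Ctnnb1, which encodes beta-catenin (-0.94), Slc36a2 (-0.86), Pnisr (-0.83) and Efhd1 (-0.83). Slc36a2 and Efhd1 were lower in SMA in the other kept cells as well, at -1.38 and -1.09.

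**Figure D5:**
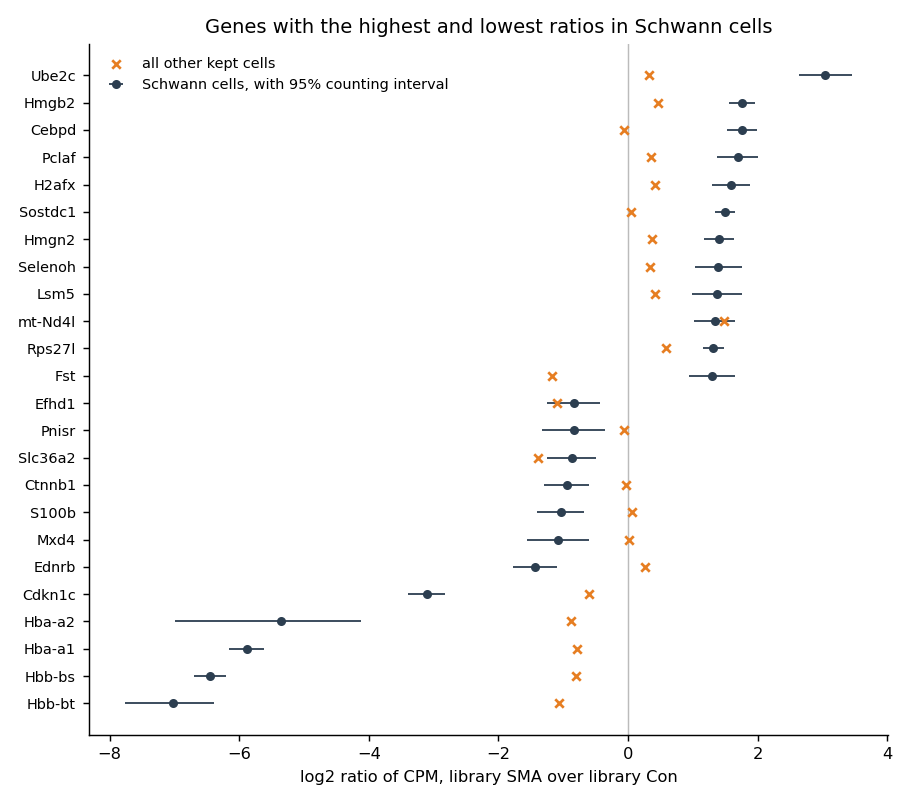
Log2 ratio of CPM, SMA over Con, with 95% counting intervals, for the 12 highest and 12 lowest genes in Schwann cells (dark points), and for the same genes in all other kept cells (orange crosses). Cebpd, Sostdc1 and Fst lie above 1 in Schwann cells with crosses at -0.06, 0.04 and -1.18, and mt-Nd4l lies at 1.34 with its cross at 1.48.

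Stress and injury genes gave small positive medians, beside 1443 of 2568 higher among all genes. Of 18 immediate early and stress genes 13 were compared, 11 higher, none past 2-fold, with a median of 0.22, led in UMIs by Fos (0.39, 0.29 to 0.48) and Junb (0.64, 0.52 to 0.76). The direction differed between sub-clusters, with 5 of 5 compared genes higher in the myelinating group (median 0.62) and 5 of 6 in sub-cluster 3 (0.38), but 1 of 8 in the immature group (-0.43). Fos and Junb were higher in the other kept cells too, at 0.45 and 0.40. The summed microglial markers were higher in SMA Schwann cells as well, as given above, and their part in these values was not tested. Of 22 genes of the repair state after nerve injury 5 were compared, and the 1 past 2-fold was Olig1, lower in SMA with 20 and 86 UMIs (-1.26, -2.05 to -0.55), beside Atf3 at 0.92 (0.48 to 1.36) and a median of 0.39. Olig1 also stands on the oligodendrocyte list, and sub-cluster 6 carried it. Of 20 p53 targets 6 were compared, with a median of 0.23 and none past 2-fold, though Rps27l, at 1.32, is not on that list. Cdkn1a, the p21 cell-cycle inhibitor, stood at 0.32 (0.11 to 0.52) in Schwann cells and at 1.33 in the other kept cells, and Bax at 0.43 (0.18 to 0.69) and 0.38. Of 15 genes of the unfolded protein response 9 were compared, 7 higher, none past 2-fold, with a median of 0.14.

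Smn1 itself could not check the labels here. It had 32 UMIs in 25 SMA cells and 35 in 31 Con cells, 46.7 and 28.6 CPM (0.71, -0.03 to 1.44), below the limit of 100 UMIs. The files count 3′ ends and do not say where along the gene a UMI lay, nor whether that end lies in the altered part of the allele, and transcripts of the human transgene were not counted apart. Of the 9 genes of the SMN complex only Strap reached 100 UMIs, at 0.25 (-0.14 to 0.64).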

How the data were processed

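Whole spinal cords of postnatal day 4 mice had been dissociated and sequenced with 10x Genomics 3′ version 3 chemistry, 1 library per group. The deposited values are raw UMI counts per gene and barcode. The authors made them with Cell Ranger (4.0.0 per the file headers) on mm10 per the labels. The submitters' notes also name Seurat 3.2.2, whose output is not used here. Counts of 32285 genes were read as deposited. Gene positions came from GENCODE on GRCm38 by identifier, which matched 32158 of them.

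Barcodes with 200 to 4000 genes and under 10% mitochondrial UMIs were kept, and SMA barcodes also listed in Con were left out. No doublet caller was used beyond the 4000-gene limit and the excluded genes. UMIs were summed over the Schwann cells of each library and scaled to CPM. Ratios have exact conditional binomial intervals and shares Clopper-Pearson intervals (95%), and intervals and floors cover counting error only. For a count of 0 the upper limit was taken as 3 counts. Genes with 100 or more UMIs were compared, and 2-fold is a rule of size, not a test. Sub-clusters came from Leiden clustering (resolution 0.5, 1500 variable genes, 15 principal components, 15 neighbours, globin, sex and mitochondrial genes left out) and were named only where markers set down with the design allowed it. Detected markers were those found in at least 10% of a group's cells and at least 2-fold above the other groups. Cycling was read in cells thinned to 2000 UMIs, by the majority of 101 draws. Comparison cells were chosen by 3 or more of their own markers, and erythroid cells by globins.

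Named genes were the members of the rule and of the myelin, transcription factor and trophic lists, the most counted or 2-fold members of other lists, the 12 highest and 12 lowest ratios, the 20 most specific genes, the 8 leading genes of each sub-cluster, and Smn1. Some genes these rules would name are not reported here. The cells and the 32 gene lists were chosen with earlier results of these data known. Python 3.11.15, numpy 2.4.6, scipy 1.17.1, pandas 2.3.3, scanpy 1.11.5 and matplotlib 3.10.9 were used, and the interval code was tested on simulated data.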

Additional observations from a re-analysis of the deposited data

How the results depend on the processing

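There were 24 alternatives, 16 planned and 8 chosen after seeing the data (they leave out a sub-cluster, globin-rich cells or Con cells without a shared barcode, allow no excluded gene other than Col1a2, drop Pmp2 from the rule, or leave shared barcodes out of Con too). No paired analysis was possible because there was 1 library per group, and for the same reason no library could be left out. Depth kept most receptors and trophic factors out of the comparison, with 3 of 25 and 4 of 26 at 100 UMIs or more. The number of genes 2-fold higher in SMA, 41, became 11 without any excluded gene, 11 thinned to 2000 UMIs, 101 and 13 with limits of 50 and 300 UMIs, 1074 with no limit, 13 without the cycling sub-cluster and 260 with shared barcodes left out of Con too. The number 2-fold lower, 26, became 9 without any excluded gene, 8 thinned, 80 and 8 with limits of 50 and 300 UMIs, and 1027 with no limit. The cholesterol median, -0.13, became 1.24 without any excluded gene, 0.11 with shared barcodes kept in SMA, 0.063 with equal weight per cell, 0.092 thinned, 0.071 without the cycling sub-cluster and 0.44 with shared barcodes left out of Con too. The myelin median, -0.05, became 1.05 without any excluded gene. The log2 ratio of Schwann cell shares became 1.97 with shared barcodes left out of Con too, and that of cycling shares -0.18 without the cycling sub-cluster. For 40 named genes 709 values were computed, and 680 kept the sign of the main result. Among genes whose main interval lay off 0, 23 values changed sign. Without any excluded gene (5 and 12 cells) these were Art3 (0.19), Cntf (2.33), Dhh (0.45), Fst (-1.67), H2afx (-2.26), Hmgb2 (-2.76), Hmgn2 (-0.44), Mbp (1.03), Mxd4 (0.52), Ptn (-1.51), S100b (0.77), Selenoh (-2.58), Slc36a2 (0.86) and Sostdc1 (-0.76). With shared barcodes left out of Con too (10 Con cells) they were Cdkn1c (0.71), Ctnnb1 (0.0093), Pnisr (0.13) and Ptn (-0.38). Mbp changed sign with shared barcodes kept in SMA (0.062), with equal weight per cell (0.018) and with the cycling sub-cluster left out (0.081). Ube2c changed sign without the cycling sub-cluster (-0.028) and Hba-a1 without globin-rich cells (0.18). The cause was not tested, except that the limits on UMIs change how many genes are compared and that leaving out cells changes which cells are summed.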
